A study of Mus musculus with 63 samples.

Results

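The genes Neurog3, Neurod1, Pax4, Pax6, Isl1, Nkx2-2, Insm1 and Rfx6, which encode transcription factors of the hormone-producing (enteroendocrine) lineage of the gut, were followed through RNA-Seq counts of organoids from mouse intestine and of intestinal epithelial cells (IECs). They were chosen by name, as 8 of the 54752 genes listed in each table of counts, and each had counts in all the tables. The 57 libraries used formed 19 groups of 3 libraries, all from mice on a C57BL/6 background. Organoids at day 7 came from 5 lines, all given 100 nM 4-hydroxytamoxifen (4-OHT): VillinCreERT2 and C57BL/6, which carry no deleted allele and served as controls, Cdk8KO (VillinCreERT2; Cdk8 fl/fl), Cdk19KO (Cdk8 fl/fl; Cdk19 ko/ko, with no Cre) and the double knockout, DKO (VillinCreERT2; Cdk8 fl/fl; Cdk19 ko/ko). Another line of the DKO genotype, named line 1002 in the column headings, was given 100 nM 4-OHT or 0.001% ethanol (EtOH) and collected at days 3, 5, 7 and 10, and at day 10 also in medium with Wnt3-conditioned medium (Wnt3-CM). By these labels its EtOH organoids lack Cdk19 and keep Cdk8. A line with VillinCreERT2, Cdk8 fl/fl and the Cdk19 genotype ko/D173A, in which the D173A allele encodes a kinase-dead protein, was given EtOH or 4-OHT and collected at day 7. IECs came from VillinCreERT2 and DKO mice 14 days after the last of 5 daily injections of 80 mg/kg tamoxifen. CreERT2 is a recombinase switched on by 4-OHT, and the Villin promoter drives it in the intestinal epithelium. Each organoid genotype was a single line apart from the DKO genotype, so that genotype and line cannot be told apart between lines, whereas 4-OHT and EtOH were compared within a line.

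Neurog3 starts the enteroendocrine fate in secretory progenitors that have expressed Atoh1, and its transcripts are present for a short time in each cell. It acts through Neurod1, Pax4, Insm1, Rfx6 and Nkx2-2, while Pax6 and Isl1 are known for their part in later hormone-producing cells, and Chga, Chgb and the hormone genes mark the mature cells. CDK8 and CDK19 are paralogous kinases of the Mediator complex, which links transcription factors to RNA polymerase II, and the comparisons ask what their loss does to this lineage.

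Only a small part of each library came from these genes. Library totals ran from 15485959 to 32909565 counts, and the highest count of any of the factors was 584. Counts of Cdk8 and Cdk19 over the whole gene do not test the labels, since a deletion of part of a gene leaves other exons to be counted. Their levels followed the labels only in part. Cdk8 stood at 65.0 to 67.1 CPM (counts scaled to a common library total) in DKO, at 77.9 to 83.1 CPM in Cdk8KO and at 71.8 to 80.7 CPM in VillinCreERT2 organoids. Next to VillinCreERT2 it was thus lower in DKO but not in Cdk8KO organoids. Within a line, Cdk8 was at 55.7 CPM on average with 4-OHT and with EtOH in line 1002 at day 10, at 67.0 ± 3.0 against 66.6 ± 3.7 CPM in Cdk19 ko/D173A organoids and at 52.2 ± 4.9 against 47.5 ± 2.1 CPM in Wnt3-CM. Cdk19 stood at 24.7 to 26.0 CPM in Cdk19KO and at 28.7 to 34.5 CPM in C57BL/6 organoids, and had group means of 38.1 to 58.3 CPM in line 1002, which is labelled Cdk19 ko/ko. Summed markers of immune cells were at most 0.774 CPM in organoids and reached 767 CPM in IECs, and those of mesenchyme reached 32.4 CPM in organoids and 797 CPM in IECs. In these bulk samples, fewer enteroendocrine cells and less RNA per cell cannot be told apart.

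Neurog3, the earliest of the factors, lies at chr10:62133090-62134763 on the plus strand (GENCODE vM21, GRCm38) as a single block of 1674 bp, and Isl1, a LIM-homeodomain factor, at chr13:116298281-116309689 on the minus strand with 7 exon blocks. Basic helix-loop-helix factors such as NEUROG3, NEUROD1 and ATOH1 bind E-boxes, written CANNTG. The 250 bases before the RefSeq start of both genes (GRCm38.p6) are printed 5′ to 3′ on the strand of the gene because they hold the same E-box, CAGCTG, once each and in capitals, while Neurog3 was counted in all 30 libraries of line 1002 and Isl1 in 2 of them. The window of Neurog3 is chr10:62132840-62133089 and that of Isl1 is chr13:116309689-116309938.
Neurog3: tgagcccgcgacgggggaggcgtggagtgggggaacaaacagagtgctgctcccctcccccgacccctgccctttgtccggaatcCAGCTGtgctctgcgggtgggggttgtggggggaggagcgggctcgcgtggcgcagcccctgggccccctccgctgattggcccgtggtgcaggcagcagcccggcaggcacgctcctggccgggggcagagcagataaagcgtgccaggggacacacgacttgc
Isl1: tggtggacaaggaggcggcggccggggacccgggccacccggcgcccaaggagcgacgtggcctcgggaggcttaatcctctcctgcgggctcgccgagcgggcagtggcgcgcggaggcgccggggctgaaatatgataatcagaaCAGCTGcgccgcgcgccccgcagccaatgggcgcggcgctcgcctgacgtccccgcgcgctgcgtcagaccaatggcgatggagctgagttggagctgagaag
The E-box stood 165 bp before the start of Neurog3 and 103 bp before the start of Isl1. CANNTG reads the same on both strands and was found in 66.2% of 32851 promoter windows of this length, and CAGCTG, a form of it, in 13%. RefSeq windows were found for 6 of the 8 factors, not for Pax4 and Insm1. The other windows held 3 CANNTG in Nkx2-2, 1 in Neurod1, none in Rfx6, and none or 1 in the windows of Pax6. These matches describe the letters and not binding.

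The factors were divided by line. In line 1002, 4 of the 8 were at or close to 0 in every library, while Neurog3 and Pax4 reached their highest counts of the series there, at day 3. Neurog3 had 584, 502 and 498 counts in the EtOH libraries of day 3, and between 29 and 584 counts in each of the 30 libraries of line 1002, against 36 to 269 in the other organoids and 17 to 39 in IECs. Pax4, a paired-homeodomain factor, had 191, 196 and 183 counts in the same EtOH libraries, against at most 111 in any library of the other lines. The other organoid lines were collected at day 7 only. At day 7 with EtOH, Pax4 was at 3.50 CPM in line 1002 and 3.40 CPM in Cdk19 ko/D173A organoids, and Neurog3 at 12.7 and 7.63 CPM.

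Neurod1, a basic helix-loop-helix factor and a target of Neurog3, summed to 2 counts over the 30 libraries of line 1002, with no library above 1 count. The 27 other libraries had between 47 and 166 counts each. Nkx2-2, a homeodomain factor, summed to 3 counts in line 1002, with no more than 1 in a library, against 19 to 264 counts elsewhere. Isl1 summed to 2 counts, again with no more than 1 in a library, against 19 to 59. Pax6, which marks endocrine cells of gut and pancreas, had 35 counts in line 1002, spread over 19 libraries with at most 4 in each, against 20 to 89. For none of these 4 did the libraries of line 1002 overlap those of the other lines.

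Few genes were divided in this way. Of 12110 genes with at least 10 counts in each of the 27 other libraries, 42 (0.347%) had 3 counts or fewer in every library of line 1002, and 3 of them were Neurod1, Isl1 and Nkx2-2, out of 7 factors that met the same minimum. With a minimum of 20 counts, it was 20 of 11279 genes (0.177%), and Neurod1 was the only 1 of 3 factors. These cutoffs were set after the values were seen, and the shares are a description. Insm1, a zinc-finger factor needed for endocrine progenitors, and Rfx6, a winged-helix factor that acts with them, were in between. Insm1 had 1 to 97 counts per library in line 1002, against 69 to 468 elsewhere, and Rfx6 had 0 to 44, against 18 to 284.

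The genes around the factors showed the same line difference in part. Among 16 other transcription factors of the lineage, 2 (Lmx1a and Hhex) had no count in any library of line 1002, whereas Rcor2, Foxa1, Foxa2, Tox3 and Mnx1 reached 2136, 3424, 899, 1769 and 313 counts there. In the other libraries Lmx1a had 16 to 111 counts and Hhex 0 to 51. The libraries of line 1002 summed to 586426468 counts, so that a count of 0 over all of them allows a level of up to 0.00512 CPM (3 counts), a limit that covers counting error only. Of 20 hormone and secretory granule genes, 8 were at 3 counts or fewer in every library of that line, among them Sst, Pyy, Tac1 and Scg2, with at most 2, 1, 1 and 1 counts. In the other libraries their lowest counts were 9, 5, 33 and 10, and Insl5, also among the 8, had 0 to 9. The share over all genes given above asked for at least 10 counts in each other library, and none was taken for this list. Chga had at most 11 counts in a library of line 1002 against 566 to 5462 elsewhere, and Chgb at most 11 against 1285 to 17302. Sct, which encodes secretin, reached 155 counts in line 1002, and Ddc, which encodes an enzyme of amine synthesis, reached 4667. None of the 10 secretory and Notch regulators was at this floor, and Atoh1 reached 755 counts in line 1002, against 724 in the other lines. Summed over the 20 hormone and granule genes, levels were 44.7 to 256 CPM in line 1002, 539 to 1088 CPM in the other organoids and 619 to 841 CPM in IECs. In line 1002 this sum was mostly Ddc, with 68579 counts over its libraries, against 2702 of Sct, 135 of Chgb and 58 of Chga. The defining markers of intestinal epithelium were high in line 1002, at 4887 to 9244 CPM in sum, next to 4792 to 6226 CPM in the other organoids. The DKO organoids of day 7, which share the genotype of line 1002 but are another line, had 47, 47 and 49 counts of Neurod1. The Wnt3-CM libraries of line 1002 and the Cdk19 ko/D173A libraries stand in the same table, and there Neurod1 had 0 counts in all 6 of the former and 109 to 166 in the latter. The cause of the division was not tested.

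**Figure D1:**
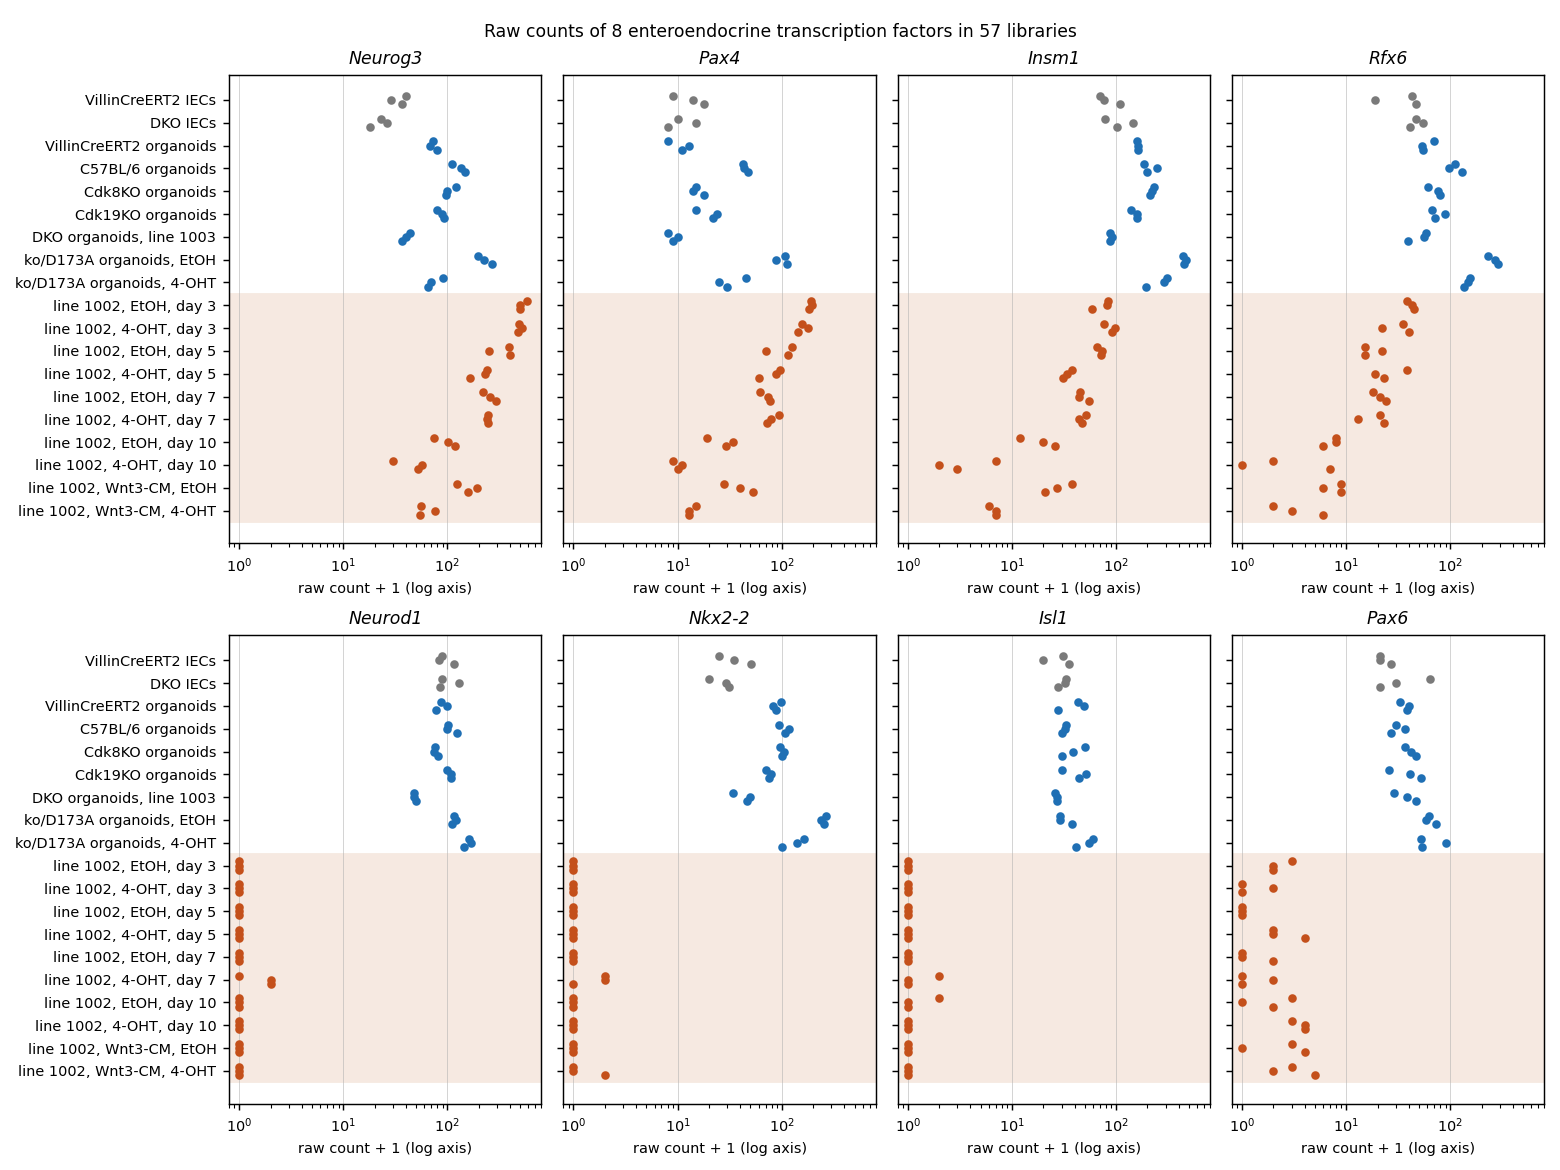
Raw counts plus 1 (log axis) of the 8 factors, with 1 point for each of the 57 libraries and 1 row for each of the 19 groups, where the shaded rows are line 1002. Neurod1, Nkx2-2 and Isl1 lie at 0 or 1 count in all shaded rows, while Neurog3 reaches 584 counts there.

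Set against Neurog3 in the same library, Pax4 behaved unlike the other factors. Its counts per Neurog3 count had a median of 0.288 in line 1002 (range 0.160 to 0.397) and of 0.231 in the other organoids (0.0986 to 0.546), so that the ranges overlapped. Insm1 had a median of 0.168 per Neurog3 count in line 1002 (0.0179 to 0.301) and of 2.10 in the other organoids (1.34 to 4.21), with no overlap. Rfx6 had medians of 0.0742 (0 to 0.155) and 0.989 (0.5 to 2.18), again with no overlap. In IECs, where Neurog3 itself was at 0.834 to 2.14 CPM, Neurod1 per Neurog3 count was at 2.26 to 5.08, against 0.405 to 2.44 in the other organoids, and Insm1 was at 1.77 to 6.00. Both ranges overlapped those of the other organoids.

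**Figure D2:**
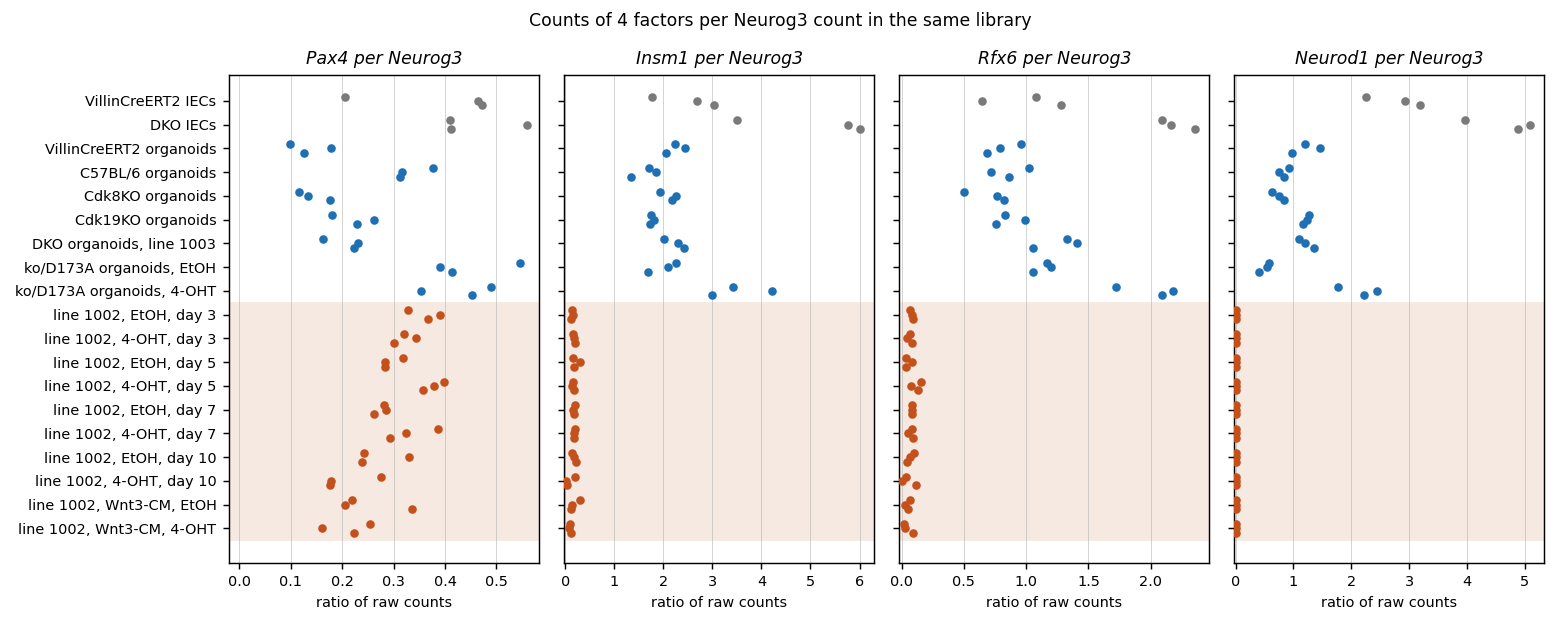
Ratio of the raw counts of Neurod1, Pax4, Insm1 and Rfx6 to the raw count of Neurog3 in the same library, with 1 point for each library and the rows of line 1002 shaded. The ratio of Pax4 overlaps between line 1002 and the other organoids, while those of Neurod1, Insm1 and Rfx6 do not.

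Per kilobase of annotated exons, the order of levels between the factors also differed between lines. In C57BL/6 organoids, Neurog3 stood at 4.58 CPM per kb, Insm1 at 4.01, Neurod1 at 2.34, Nkx2-2 at 2.18, Pax4 at 1.77, Rfx6 at 1.65, Isl1 at 0.461 and Pax6 at 0.154 CPM per kb. In EtOH organoids of line 1002 at day 3, Neurog3 stood at 16.9 CPM per kb, Pax4 at 7.02, Insm1 at 1.26 and Rfx6 at 0.546 CPM per kb. In VillinCreERT2 IECs, the highest were Neurod1, at 1.88 CPM per kb, and Insm1, at 1.47, ahead of Neurog3, at 1.11 CPM per kb. Some exons are shared with other genes, and the strand setting of the counting, without which reads of opposite strands cannot be told apart, is not given in the sources used here. On the opposite strand, 273 bp of Neurog3 (16.3% of its exons) are shared with Fam241b, 278 bp of Nkx2-2 with Nkx2-2os and 154 bp of Neurod1 with Gm26755, while 201 bp of Neurod1 are shared with Cerkl on the same strand, where a strand setting would not part them. Fam241b was measured at group means of 9.70 to 20.1 CPM.

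The 2 single knockouts and the DKO were each compared with a control at day 7, to ask whether the paralogs stand in for each other. A gene was called changed when its fold change exceeded 1.5 and its adjusted p was below 0.05 (edgeR quasi-likelihood test, Benjamini-Hochberg over all genes tested). Log2 fold changes are given with their standard error (SE), and levels as mean CPM with the SD of 3 libraries.

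In Cdk8KO organoids none of the 8 factors was called by edgeR, DESeq2 or limma-voom, where 7.23% of all genes tested were called by edgeR, and 2 of the 8 had an unadjusted p under 0.05. Neurog3 had 120, 98 and 96 counts in Cdk8KO and 71, 67 and 79 in VillinCreERT2 organoids, or 4.79 ± 0.55 against 3.51 ± 0.39 CPM. The groups did not overlap, and the difference of 0.45 ± 0.14 (adjusted p = 0.0186) was under the fold cutoff. Insm1 was likewise at 10.1 ± 0.39 against 7.82 ± 0.28 CPM, a log2 difference of 0.37 ± 0.10 (adjusted p = 0.00743). Of 11 genes of other secretory cells 2 were lower and none was higher, and of 4 stem cell genes 1 was higher.

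Cdk19KO organoids had lower Neurog3, Pax4 and Rfx6 than C57BL/6 organoids, 3 of 8 factors against 5.25% of all genes. Pax4 had 14, 23 and 21 counts in Cdk19KO and 41, 42 and 46 in C57BL/6 organoids, and fell by 1.20 ± 0.24 on the log2 scale (adjusted p = 0.000691). Neurog3 had 78, 88 and 92 against 109, 133 and 147 counts, and fell by 0.64 ± 0.14 (adjusted p = 0.0015). Rfx6 had 65, 87 and 70 against 111, 95 and 127 counts, and fell by 0.64 ± 0.17 (adjusted p = 0.010). In each of the 3 the groups did not overlap. Nkx2-2 and Insm1 had log2 differences of -0.56 ± 0.14 (adjusted p = 0.00748) and -0.52 ± 0.10 (adjusted p = 0.00086), under the fold cutoff, while Neurod1 was at 6.01 ± 0.28 and 6.37 ± 0.74 CPM. Nkx2-2 was called without C57BL/6 replicate 1 or Cdk19KO replicate 2, at -0.59 in both. Without C57BL/6 replicate 3 or without Cdk19KO replicate 1, Neurog3 (at -0.55 and -0.57) and Rfx6 (at -0.54 and -0.55) were no longer called, and Rfx6 was also lost without Cdk19KO replicate 3, at -0.58. Of 19 hormone and granule genes tested, 6 were higher and 1 was lower (median 0.16), with Scg2 at 2.86 ± 0.24 and Sst, which encodes somatostatin, at 2.75 ± 0.20, while Tph1, which encodes the enzyme of serotonin synthesis, was at -0.76 ± 0.11 on the log2 scale. Of 16 other enteroendocrine transcription factors 3 were lower, of 11 genes of other secretory cells 1 and of 4 stem cell genes 2 (median -0.59), with none higher in these lists, and none of 10 secretory and Notch regulators was called.

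DKO organoids had lower Neurog3, Neurod1, Nkx2-2 and Insm1 than VillinCreERT2 organoids, 4 of 8 factors against 19.4% of all genes. Nkx2-2 had 33, 49 and 45 counts in DKO and 98, 81 and 87 in VillinCreERT2 organoids, and fell by 0.86 ± 0.16 (adjusted p = 6.44e-05). Insm1 had 87, 90 and 87 against 159, 163 and 162 counts, and fell by 0.67 ± 0.12 (adjusted p = 2.82e-05). Neurog3 had 43, 39 and 36 against 71, 67 and 79 counts, and fell by 0.68 ± 0.17 (adjusted p = 0.00145). Neurod1 had 47, 47 and 49 against 85, 98 and 77 counts, and fell by 0.66 ± 0.15 (adjusted p = 0.000695), though without VillinCreERT2 replicate 2 it was at -0.57 and under the fold cutoff. None of the 4 overlapped between the groups. The rest overlapped: Pax4 was at -0.07 ± 0.37, Rfx6 at -0.02 ± 0.20, Isl1 at -0.40 ± 0.25 and Pax6 at 0.24 ± 0.24. Among 10 secretory and Notch regulators, 6 were lower, with Sox4 at -1.23 ± 0.11 and Atoh1 at -0.80 ± 0.10, and Hes1, a Notch target, was higher, at 0.60 ± 0.06. Of 16 other enteroendocrine transcription factors, 5 were lower, with St18 at -0.97 ± 0.26 and Prox1 at -0.85 ± 0.23, and of 19 hormone and granule genes, 6 were lower, with Ghrl, which encodes ghrelin, at -2.77 ± 0.24 and Pyy at -2.42 ± 0.36. The median log2 fold change was -0.51 over these 16 factors and -0.41 over the 19 hormone and granule genes, against 0.00 over all genes tested. In DKO organoids 9 of 11 genes of other secretory cells (median -1.30) and 3 of 4 stem cell genes (median -0.84) were lower and none of these was higher, while 1 of 3 genes of enteric neurons and glia tested and 1 of 3 genes of the proximal small intestine were higher. The lines also differed in markers of the distal small intestine, whose sum was 146 to 416 CPM in VillinCreERT2, 28.8 to 68.8 in DKO, 70.9 to 94.2 in Cdk19KO, 16.5 to 25.1 in Cdk8KO and 2.03 to 2.66 CPM in C57BL/6 organoids, with Hoxb13 at or close to 0. The part of this in the differences between lines was not tested.

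Against the Cdk19KO line, DKO organoids had 7 of 8 factors lower, where 10.6% of all genes were called. Neurod1 fell by 1.18 ± 0.15 (adjusted p = 5.11e-07), Neurog3 by 1.17 ± 0.16 (adjusted p = 2.89e-06) and Pax4 by 1.30 ± 0.32 (adjusted p = 0.00232). Nkx2-2 fell by 0.85 ± 0.16, Insm1 by 0.83 ± 0.12, Rfx6 by 0.61 ± 0.19 and Isl1 by 0.70 ± 0.25, with adjusted p of 0.000189, 3.64e-06, 0.0141 and 0.0287. Pax6, at 28, 37 and 46 against 25, 40 and 51 counts, had a difference of -0.10 ± 0.24. Isl1 was no longer called with DESeq2 (adjusted p = 0.0528), with limma-voom (adjusted p = 0.0515) or without 5 of the 6 libraries taken in turn (all but Cdk19KO replicate 1), and Rfx6 was lost without DKO replicate 3 (-0.44) or Cdk19KO replicate 2 (-0.46). Against Cdk8KO organoids, 3 of 8 were lower, with 20.4% of all genes called: Neurog3 fell by 1.13 ± 0.16, Nkx2-2 by 0.95 ± 0.16 and Insm1 by 1.04 ± 0.11, with adjusted p of 1.45e-06, 1.45e-05 and 1.95e-08. Neurod1, at -0.40 ± 0.15 (adjusted p = 0.0295), was under the fold cutoff. Against Cdk19KO, 7 of 11 genes of other secretory cells (median -2.18) and 2 of 4 stem cell genes (median -0.63) were lower, and against Cdk8KO, 7 of 11 (median -1.26) and 3 of 4 (median -1.32), with none higher in these 2 lists. Of 3 genes of enteric neurons and glia tested, 2 were higher and 1 lower against Cdk19KO and 1 was higher against Cdk8KO, and of 3 genes of the proximal small intestine, 1 and 2 were higher. Of the 19 hormone and granule genes, 2 were higher and 5 lower against Cdk19KO (median -0.31), and 5 were lower and none higher against Cdk8KO (median -0.22). These comparisons share the DKO libraries.

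The 2 control lines differed from each other as well. C57BL/6 organoids had 5 of 8 factors higher than VillinCreERT2 organoids, where 26.4% of all genes were called. Pax4 had 41, 42 and 46 counts against 7, 12 and 10, a log2 difference of 2.43 ± 0.27 (adjusted p = 1.95e-08). Rfx6 was higher by 1.22 ± 0.17, Neurog3 by 1.13 ± 0.14, Insm1 by 0.67 ± 0.10 and Neurod1 by 0.60 ± 0.13, with adjusted p of 1.28e-06, 1.24e-07, 3.66e-06 and 0.000368. Insm1 was under the fold cutoff without C57BL/6 replicate 2 (0.57), and Neurod1 without C57BL/6 replicate 3 (0.52) or VillinCreERT2 replicate 1 (0.57) or 3 (0.54). Nkx2-2, at 0.54 ± 0.14, was under the fold cutoff, and was called with upper-quartile factors (0.63) and without VillinCreERT2 replicate 1 (0.60). Of 11 genes of other secretory cells 4 were higher and 1 lower, and of 4 stem cell genes 2 were higher. Of the 19 hormone and granule genes tested, 9 were lower and 5 higher (median -0.55), and of 16 other enteroendocrine transcription factors, 4 were lower and 3 higher (median 0.04). Ordered by mean among these 5 lines, Neurog3 was highest in C57BL/6 (7.67 ± 0.82 CPM), followed by Cdk19KO (4.92 ± 0.35) and Cdk8KO (4.79 ± 0.55), whose libraries overlapped, then VillinCreERT2 (3.51 ± 0.39) and DKO (2.19 ± 0.19), which did not overlap with any other of the 5.

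When the DKO change was set against the sum of the 2 single-knockout changes, none of the 8 factors was called, where 19.6% of all genes were. Neurog3 and Insm1 were the 2 factors with an unadjusted p under 0.05, Neurog3 at -0.49 ± 0.21 (adjusted p = 0.0649) and Insm1 at -0.53 ± 0.15 (adjusted p = 0.00756), which was under the fold cutoff. DESeq2 and limma-voom called none either. Without C57BL/6 replicate 2, Insm1 was called by edgeR, at -0.61 (adjusted p = 0.00339).

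**Figure D3:**
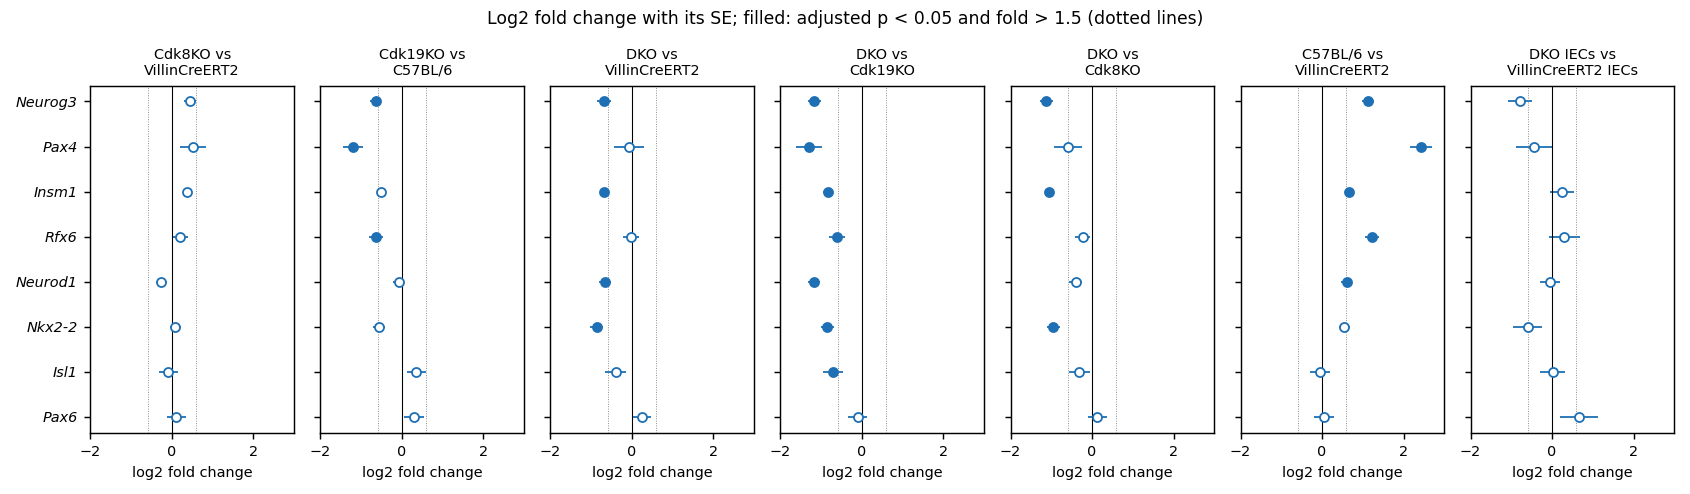
Log2 fold change with its SE of the 8 factors in comparisons of organoid lines at day 7 and of DKO with VillinCreERT2 IECs. Filled points have a fold change beyond 1.5 (dotted lines) and an adjusted p below 0.05. Neurog3, Nkx2-2 and Insm1 are filled and lower in each DKO comparison of organoids. Pax6 is open throughout, and all factors are open in IECs.

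Within line 1002, 4-OHT was compared with EtOH at each day. Neurog3, Pax4, Insm1 and Rfx6 had enough counts to be tested, and they fell with time in EtOH organoids already, so that each day was compared on its own level. Between days 3 and 10 of EtOH, 4 of 4 tested factors fell, where 38.4% of all genes were called: Neurog3 went from 28.2 ± 2.9 to 4.86 ± 1.19 CPM (-2.54 ± 0.19), Pax4 from 10.1 ± 0.36 to 1.32 ± 0.41 CPM (-2.94 ± 0.22), Insm1 from 3.92 ± 0.73 to 0.920 ± 0.369 CPM (-2.09 ± 0.25) and Rfx6 from 2.19 ± 0.17 to 0.315 ± 0.054 CPM (-2.77 ± 0.41). Whether the days were sequenced together is not given in the sources used here. Over the same days, 9 of 12 other enteroendocrine transcription factors tested fell and none rose, while of 4 stem cell genes 1 rose and none fell.

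At day 3, none of the 4 was called by edgeR, DESeq2 or limma-voom, where 12.4% of all genes were. Pax4 had 155, 177 and 143 counts with 4-OHT and 191, 196 and 183 with EtOH, a difference of -0.42 ± 0.18 (unadjusted p = 0.0267 and adjusted p = 0.0709 by edgeR), the only 1 of the 4 with an unadjusted p under 0.05. In CPM the groups of Pax4, Neurog3 and Rfx6 were apart and lower with 4-OHT, while those of Insm1 overlapped. Neurog3 was at 23.6 ± 0.91 against 28.2 ± 2.9 CPM and Rfx6 at 1.51 ± 0.45 against 2.19 ± 0.17 CPM. Of 10 genes of other secretory cells 1 was lower, and of 4 stem cell genes 1 was higher. At day 5, 2 of the 4 were called. Insm1 had 37, 33 and 30 counts with 4-OHT and 65, 73 and 70 with EtOH, and fell by 1.01 ± 0.23 (adjusted p = 0.00098), where 13.2% of all genes were called. Neurog3 fell by 0.67 ± 0.18 (adjusted p = 0.00517), with 239, 230 and 165 against 392, 247 and 399 counts. In CPM these Neurog3 libraries overlapped, and the call was lost without EtOH replicate 1 (-0.54) or 4-OHT replicate 3 (-0.53). Pax4 had 95, 87 and 59 counts with 4-OHT and 125, 70 and 113 with EtOH, a difference of -0.31 ± 0.20 (adjusted p = 0.232). Rfx6 had 37, 18 and 22 against 14, 21 and 14 counts, a difference of 0.70 ± 0.37 (adjusted p = 0.136), and the groups of both overlapped. At this day 7 of 10 genes of other secretory cells (median -0.96) and 3 of 4 stem cell genes (median -0.80) were lower with 4-OHT, with none higher in these 2 lists.

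At day 7, none of the 4 was called by the 3 tools, where 18.3% of all genes were, and none had an unadjusted p under 0.05. Neurog3 had 243, 237 and 243 counts with 4-OHT and 217, 253 and 290 with EtOH, both 12.7 CPM on average and overlapping, with a difference of 0.00 ± 0.18. At the same day 4 of 10 secretory and Notch regulators and 7 of 10 genes of other secretory cells were lower with 4-OHT, with median log2 fold changes of -0.52 and -1.04, as were 3 of 4 stem cell genes (median -1.20).

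At day 10, 3 of 4 factors were lower with 4-OHT, where 15.8% of all genes were called. Insm1 had 6, 1 and 2 counts with 4-OHT and 11, 19 and 25 with EtOH, and fell by 2.49 ± 0.44 (adjusted p = 3.37e-05). Without 4-OHT replicate 1 the difference was -3.45, a fold over 1.5 times as large. Pax4 had 8, 10 and 9 against 18, 33 and 28 counts, and fell by 1.46 ± 0.36 (adjusted p = 0.00123). Neurog3 had 29, 56 and 51 against 74, 100 and 117 counts, and fell by 1.02 ± 0.25 (adjusted p = 0.00192). None of the 3 overlapped between the groups, and those of Insm1 and Pax4 rest on few counts. Rfx6 had 1, 0 and 6 against 7, 7 and 5 counts, with a difference of -1.32 ± 0.68 (adjusted p = 0.116). It was called with limma-voom (-1.91 and adjusted p = 0.0352) and without 4-OHT replicate 3 (-3.29). Of the secretory and Notch regulators, 7 of 10 were lower at day 10, with Dll4, a Notch ligand, at -1.32 ± 0.17 and Atoh1 at -1.16 ± 0.08, and of the other enteroendocrine transcription factors 4 of 12 were lower, with Prox1 at -2.00 ± 0.41 and Rcor2 at -1.95 ± 0.08. Of 10 genes of other secretory cells 7 were lower (median -1.38), and of 4 stem cell genes 3 (median -1.18).

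The response at day 10 differed from that at day 3 for 3 of the 4 factors, where 26.3% of all genes were called. The difference between the responses was -2.60 ± 0.49 for Insm1 (adjusted p = 7.68e-05; -3.56 without 4-OHT replicate 1 of day 10), -1.05 ± 0.40 for Pax4 (adjusted p = 0.0339) and -0.77 ± 0.30 for Neurog3 (adjusted p = 0.0427). Those of Pax4 and Neurog3 were not called with limma-voom, with adjusted p of 0.106 and 0.0675, and that of Neurog3 was not called with the replicate number as a block (adjusted p = 0.0591). Leaving out 1 library ended the call in 6 of 12 fits for Pax4 and in 8 of 12 for Neurog3. Over the libraries left out in turn, the largest adjusted p was 0.122 for Pax4, without EtOH replicate 2 of day 10, and 0.164 for Neurog3, without 4-OHT replicate 1 of day 10.

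**Figure D4:**
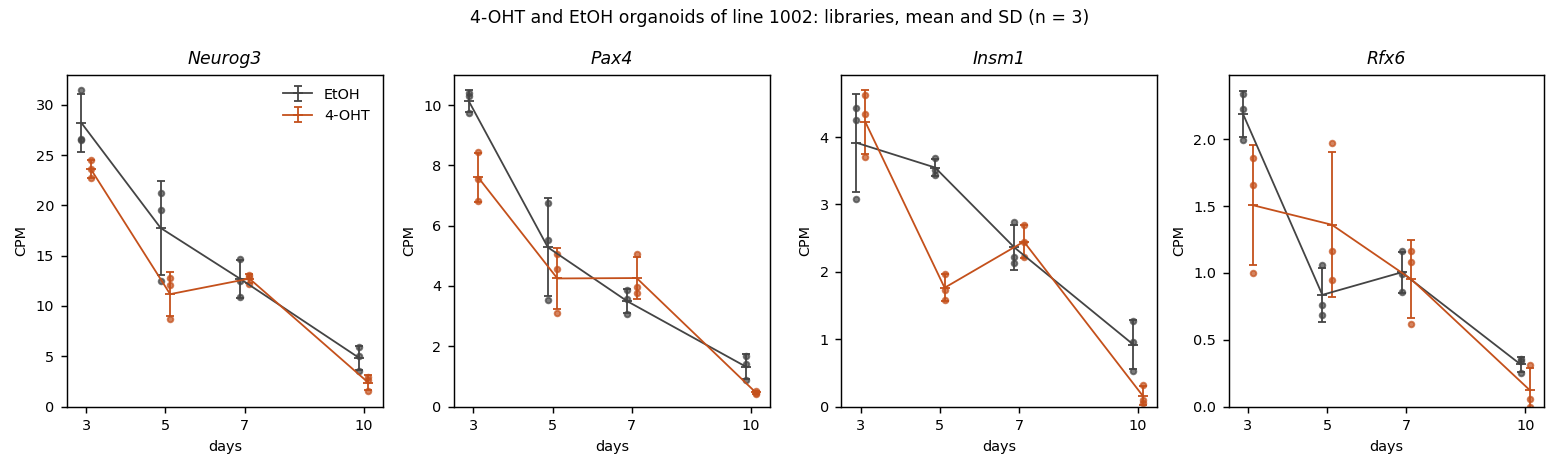
CPM of Neurog3, Pax4, Insm1 and Rfx6 in line 1002 at days 3, 5, 7 and 10, with 1 point for each library, and lines and bars for the mean and SD of 3 libraries with EtOH or 4-OHT. All are lower at day 10 than at day 3, and the groups of Neurog3, Pax4 and Insm1 are apart at day 10 and overlap at day 7. Those of Neurog3, Pax4 and Rfx6 are also apart at day 3, and those of Insm1 at day 5.

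Wnt3-CM supplies a Wnt ligand that Paneth cells and mesenchyme provide in the tissue. In this medium at day 10, 4-OHT organoids had lower levels of all 3 factors with enough counts to be tested, where 16.9% of all genes were called. Neurog3 had 55, 75 and 54 counts with 4-OHT and 123, 190 and 155 with EtOH, and fell by 1.45 ± 0.18 (adjusted p = 1.23e-06). Insm1 had 5, 6 and 6 against 37, 26 and 20 counts, and fell by 2.37 ± 0.37 (adjusted p = 2.14e-05). Pax4 had 14, 12 and 12 against 27, 39 and 52 counts, and fell by 1.73 ± 0.30 (adjusted p = 7.7e-05). The groups of each were apart. Rfx6 had 1, 2 and 5 against 8, 5 and 8 counts and was not tested, as were Neurod1, Nkx2-2, Isl1 and Pax6, which had at most 4 counts in any library of the line. Of 11 genes of other secretory cells 9 were lower (median -1.60), and of 4 stem cell genes 1 (median -0.17), while of 10 secretory and Notch regulators 6 were lower and 1 higher (median -0.74). Of the hormone and granule genes, only Ddc is given here. It was higher with 4-OHT in both media, at 0.99 ± 0.08 in Wnt3-CM and 0.80 ± 0.08 in standard medium. The direction of the others with counts in this line, such as Sct, is not given.

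For the 3 factors tested, the response in Wnt3-CM was not distinguishable from that in standard medium at this depth. In a joint fit, the difference between the responses was -0.43 ± 0.33 for Neurog3 (adjusted p = 0.364), -0.27 ± 0.49 for Pax4 (adjusted p = 0.729) and 0.12 ± 0.66 for Insm1 (adjusted p = 0.910), and none was called by edgeR, DESeq2 or limma-voom or had an unadjusted p under 0.05, where 13.3% of all genes were called. With 1 library left out, that of Insm1 ran from -0.28 to 1.08. The difference was higher for 3 of 4 stem cell genes (median 0.79) and 3 of 8 other enteroendocrine transcription factors tested (median 0.56), and lower for 3 of 6 genes of intestinal epithelium (median -0.50). The EtOH levels of Neurog3 were 8.19 ± 1.75 CPM in Wnt3-CM and 4.86 ± 1.19 CPM in standard medium, in separate tables, and were not tested against each other.

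The Cdk19 ko/D173A line had the highest levels of Insm1 and Rfx6, at 15.2 ± 0.54 and 8.66 ± 0.61 CPM with EtOH, and its factors moved in both directions. With 4-OHT, given to delete Cdk8 beside the kinase-dead allele, 5 of 8 factors were lower and 1 was higher, where 12.3% of all genes were called. Neurog3 had 90, 68 and 64 counts with 4-OHT and 196, 223 and 269 with EtOH, and fell by 1.54 ± 0.17 (adjusted p = 0.000155). Pax4 had 44, 24 and 29 against 107, 87 and 111 counts, and fell by 1.56 ± 0.25 (adjusted p = 0.00139). Nkx2-2 had 163, 139 and 99 against 264, 239 and 256 counts, and fell by 0.85 ± 0.15 (adjusted p = 0.00241).

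Insm1, with 308, 286 and 191 against 443, 468 and 453 counts, and Rfx6, with 155, 148 and 134 against 228, 268 and 284, fell by 0.73 ± 0.12 and 0.75 ± 0.13, with adjusted p of 0.00166 and 0.00198. Isl1 had 59, 54 and 40 counts with 4-OHT and 28, 28 and 37 with EtOH, and was higher by 0.80 ± 0.22 (adjusted p = 0.0226). The call for Isl1 was lost with DESeq2 (adjusted p = 0.0508) and without 5 of the 6 libraries taken in turn (all but 4-OHT replicate 3). Neurod1 had 160, 166 and 142 against 114, 121 and 109 counts, without overlap, and its difference of 0.53 ± 0.14 (adjusted p = 0.0186) was under the fold cutoff. Pax6 had 51, 89 and 53 against 61, 57 and 72 counts, a difference of 0.09 ± 0.22. As ratios to Neurog3 in the same library, Neurod1 was at 0.510 ± 0.093 with EtOH and 2.15 ± 0.34 with 4-OHT, and Pax4 at 0.450 ± 0.084 and 0.432 ± 0.070.

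Genes of mature enteroendocrine cells were also divided in this line. Of 19 hormone and granule genes tested, 10 were higher and 5 lower with 4-OHT, and their median log2 fold change was 0.77 against 0.01 over all genes. Scg5 was higher by 3.45 ± 0.60, Sst by 3.21 ± 0.16, Nts, which encodes neurotensin, by 2.36 ± 0.12, Pcsk1n by 2.06 ± 0.41 and Scg3 by 1.91 ± 0.32, whereas Ghrl fell by 1.82 ± 0.20. The other 4 that were lower, named after their values were seen, were Chgb, Tph1, Chga and Tac1, which fell by 1.81 ± 0.07, 1.66 ± 0.09, 1.10 ± 0.08 and 0.70 ± 0.12, and Ddc, whose enzyme also acts in amine synthesis, was higher by 0.77 ± 0.07. Among 16 other enteroendocrine transcription factors, 6 were lower and none higher, with Rcor2 at -2.10 ± 0.11, Neurod2 at -1.88 ± 0.35, Fev at -1.21 ± 0.13, Myt1 at -0.90 ± 0.26, Lmx1a at -0.87 ± 0.18 and Rfx3 at -0.77 ± 0.12. Of the secretory and Notch regulators, 2 of 10 were lower, Notch1 at -0.68 ± 0.16 and Spdef at -0.67 ± 0.10. Of 11 genes of other secretory cells 7 were lower and 1 higher (median -1.70), and of 4 stem cell genes 3 were lower (median -1.11). The columns of this line carry no genotype and were assigned as the only other line with EtOH and 4-OHT groups at day 7.

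**Figure D5:**
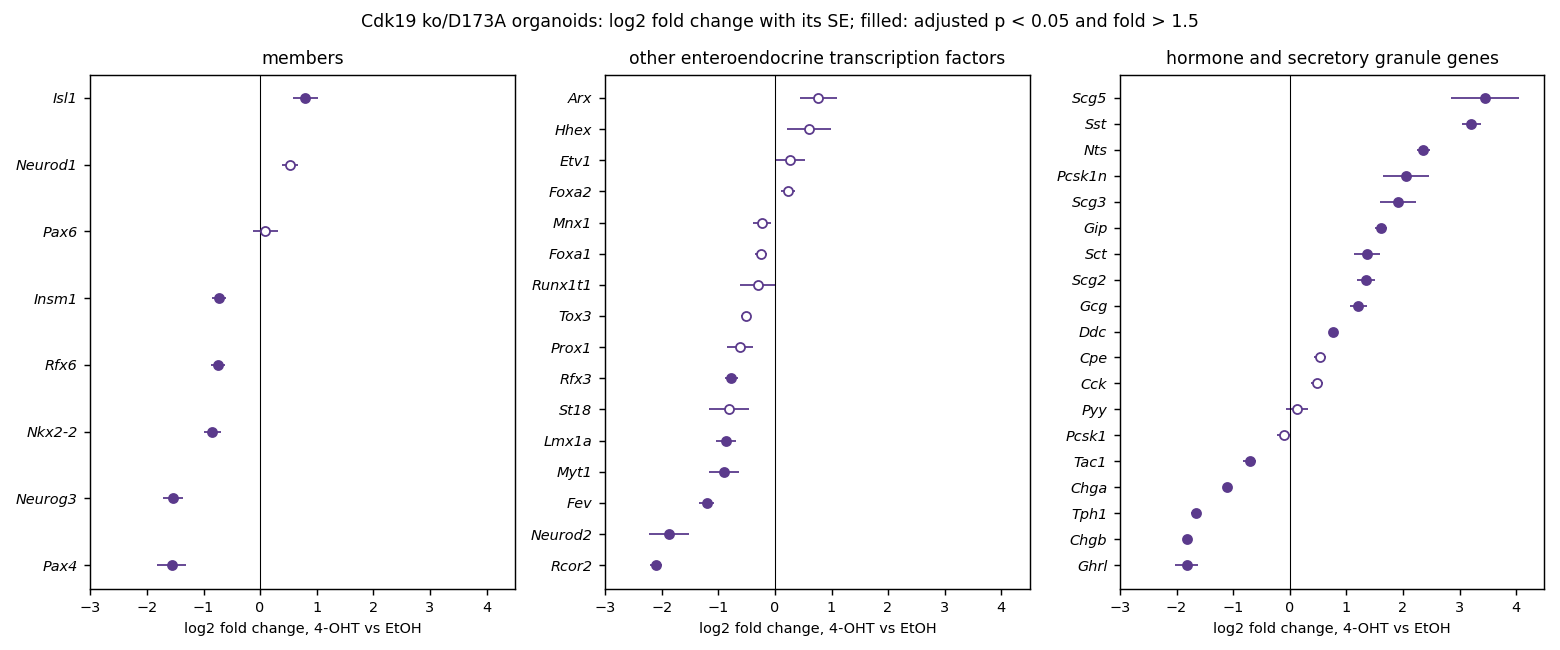
Log2 fold change (4-OHT over EtOH) with its SE in Cdk19 ko/D173A organoids for the 8 factors, 16 other enteroendocrine transcription factors and 19 hormone and granule genes, with filled points for a fold change beyond 1.5 and an adjusted p below 0.05. Pax4 (-1.56) and Neurog3 (-1.54) are the lowest of the factors, while the hormone and granule genes run from -1.82 (Ghrl) to 3.45 (Scg5).

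Set against the Cdk19 ko/ko organoids of line 1002 at the same day, the response in Cdk19 ko/D173A organoids was lower for 3 factors, where 11.1% of all genes were called. The difference between the responses was -1.85 ± 0.33 for Pax4 (adjusted p = 0.00109), -1.54 ± 0.22 for Neurog3 (adjusted p = 0.000177) and -0.78 ± 0.22 for Insm1 (adjusted p = 0.0204), and that of Rfx6 was -0.67 ± 0.31 (adjusted p = 0.138). The call for Insm1 was lost without EtOH replicate 2 or 4-OHT replicate 1 of line 1002. The response of Neurog3 in line 1002 at day 7 was 0.00, and at days 5 and 10 it was -0.67 and -1.02, so that the size of this difference depends on the day chosen. The 4 factors near 0 in line 1002 give no fold there, the fit joined separate tables, and line and allele cannot be told apart.

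In IECs, none of the 8 factors was called between DKO and VillinCreERT2 mice by edgeR, DESeq2 or limma-voom, where 1.5% of all genes were. Neurog3 had 22, 25 and 17 counts in DKO and 39, 28 and 36 in VillinCreERT2 IECs, or 1.07 ± 0.22 against 1.86 ± 0.31 CPM. The groups did not overlap, with a difference of -0.79 ± 0.30 and an unadjusted p of 0.0333 (adjusted p = 0.215), and it was the only factor with an unadjusted p under 0.05. Neurod1 had 87, 127 and 83 against 88, 82 and 115 counts, a difference of -0.05 ± 0.24. Insm1 had 77, 144 and 102 against 69, 75 and 109 counts, and Rfx6 46, 54 and 40 against 42, 18 and 46, both overlapping, with differences of 0.24 ± 0.29 and 0.29 ± 0.38. Nkx2-2 had 19, 28 and 30 against 24, 34 and 50 counts, a difference of -0.59 ± 0.35. Pax4 had 9, 14 and 7 against 8, 13 and 17 counts, and Isl1 32, 31 and 27 against 30, 19 and 34.

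Pax6 had 63, 29 and 20 counts in DKO and 20, 20 and 26 in VillinCreERT2 IECs, with DKO replicate 1 the highest of the 6 libraries and a difference of 0.66 ± 0.47. With 1 library left out, this difference ran from 0.035 to 0.97. Several of these factors are also expressed in endocrine pancreas and neurons. Summed pancreas markers were 30.0, 35.1 and 3.78 CPM in the DKO and 0.274, 2.99 and 0.374 CPM in the VillinCreERT2 IEC libraries, with Ptf1a at 0, and summed markers of enteric neurons and glia were 10.6 to 14.4 against 5.54 to 8.52 CPM. Immune markers were 479 to 767 against 38.9 to 204 CPM, and mesenchyme 390 to 797 against 5.92 to 787 CPM. The part of these cells in the IEC values was not tested. Of the hormone and granule genes, 1 was higher (Nts, at 1.26 ± 0.20) and 1 lower (Ghrl, at -2.75 ± 0.39) of 19 tested in DKO IECs, and 1 of 10 secretory and Notch regulators was lower (Dll4, at -1.17 ± 0.17). Of 11 genes of other secretory cells 6 were lower (median -1.68), and of 4 stem cell genes 2 (median -1.12), with none higher in either list.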

How the data were processed

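RNA-Seq libraries of poly-A RNA (100 bp paired-end reads) were used from 19 groups of 3 libraries. The authors deposited whole-number read counts for each gene, without normalization. The submitters' processing notes name STAR 2.5.2, featureCounts of Subread 1.6.3 and mm10. The strand setting is not given in the sources used here. Another 6 columns, of IECs with Cdk19 D173A alleles, could not be tied to their labels and were not used, so that their comparison was not made. Wnt3-CM and Cdk19 ko/D173A columns were assigned to groups by the line, medium and treatment in their names, the latter by elimination.

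Each experiment was fitted separately in edgeR 4.0.16 (R 4.3.3; filterByExpr, TMM factors, robust quasi-likelihood test), and Benjamini-Hochberg values were taken over all genes tested. DEGs had a fold change beyond 1.5 and an adjusted p below 0.05. The SE was taken as the size of the log2 fold change over the square root of F. CPM use TMM-scaled totals, and differences between responses are contrasts in 1 fit or in a joint fit of 12 libraries. Lists of other genes, 13 in all, are named by counts, with up to 6 DEGs per list in order of size. The factors and lists were chosen with earlier results of these data known. The 57 pairs of replicates held no identical libraries, with a chi-square per degree of freedom of 2.41 to 71.1. Nothing says that organoid replicates are separate cultures, so p-values measure the spread between these libraries, which may be technical. Fits were tested on simulated counts. Positions are from GENCODE vM21, and promoter windows from RefSeq (GRCm38.p6). Alternatives were no filter on low counts, upper-quartile factors, DESeq2 1.42.0, limma-voom (limma 3.58.1), a replicate block (by column number for Wnt3-CM and Cdk19 ko/D173A organoids, added after seeing the data), fits of the compared groups alone, and leaving out each library.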

Additional observations from a re-analysis of the deposited data

Results flagged for a closer look

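The response to 4-OHT in line 1002 differed between days 10 and 3 by -2.60 for Insm1, -1.05 for Pax4 and -0.77 for Neurog3 on the log2 scale (adjusted p = 7.68e-05, 0.0339 and 0.0427 by edgeR). The response in Cdk19 ko/D173A organoids differed from that in Cdk19 ko/ko organoids at day 7 by -1.85 for Pax4, -1.54 for Neurog3 and -0.78 for Insm1 (adjusted p = 0.00109, 0.000177 and 0.0204). The DKO change of Insm1 at day 7 differed from the sum of the single-knockout changes by -0.53 (adjusted p = 0.00756), under the fold cutoff. Each was picked out because a test of the difference between the responses had an adjusted p under 0.05. Without 4-OHT replicate 1 of day 10, the value of Insm1 for day 10 minus day 3 was -3.56. Without C57BL/6 replicate 2, Insm1 was called for the DKO change minus the sum, at -0.61. Leaving out 1 library ended the call of Neurog3 in 8 and of Pax4 in 6 of 12 fits for day 10 minus day 3, and that of Insm1 in 2 of 12 for Cdk19 ko/D173A minus ko/ko. The call of Neurog3 for day 10 minus day 3 was also lost with the replicate block (adjusted p = 0.0591) and with limma-voom (0.0675), and that of Pax4 with limma-voom (0.106).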

How the results depend on the processing

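Low counts limit Pax4, Isl1 and Pax6 in most groups and Rfx6 in line 1002, and all differences between lines rest on 1 line for each genotype. None of the 46 called differences changed direction under an alternative, while 19 of the 60 that were not called took the opposite sign under at least 1, all of them at or under 0.29 in size. Over 106 factors and comparisons, 106 kept their side of the thresholds with no filter on low counts, 105 with upper-quartile factors, 104 with DESeq2, 102 with limma-voom and 78 of 78 in fits of the compared groups alone. With limma-voom, 1 factor was called in place of 3 for the day 10 minus day 3 response. In the 750 fits without 1 library, 703 kept their side, 40 lost a call and 7 gained one. The number of factors called without 1 library ran from 1 to 4 for Cdk19KO against C57BL/6, from 3 to 4 for DKO against VillinCreERT2, from 5 to 7 for DKO against Cdk19KO, from 4 to 5 for C57BL/6 against VillinCreERT2, from 0 to 1 for the DKO change minus the sum, from 1 to 2 at day 5, from 3 to 4 at day 10, from 1 to 3 for day 10 minus day 3, from 5 to 6 in Cdk19 ko/D173A organoids and from 2 to 4 for their response minus that of Cdk19 ko/ko. Of 152 levels, 3 moved by over 1 SD on plain library totals. The cause of these changes was not tested.

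With the replicate block, 87 of 88 kept their side, and Neurog3 in the day 10 minus day 3 response had an adjusted p of 0.0591. In no comparison did every same-numbered pair correlate above 0.1. Some were close to this cutoff, with 0.379, 0.185 and 0.0950 in Cdk19 ko/D173A organoids and 0.222, 0.0951 and 0.133 in Wnt3-CM. In IECs the values were -0.410, -0.157 and 0.206. The cutoff therefore cannot decide whether equal numbers pair the libraries. The columns of Wnt3-CM and Cdk19 ko/D173A organoids were tied to groups and not to samples, and a block on the number in the column name, added after seeing the data, left 18 of 18 on their side. The comparison of IECs with Cdk19 D173A alleles was not run, as its columns could not be tied to labels.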

Other observations

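Genes whose group means followed the factors most closely are given as a description, over few groups of the same libraries. Over the 8 groups of the time course, the mean profile of the factors tested correlated best with Brd3 (r = 0.993), Fip1l1 (r = 0.992), Gfra3 (r = 0.988), Gm4987 (r = 0.988) and Ampd3 (r = 0.987), among genes with a mean of at least 20 counts. Gfra3 encodes a receptor of GDNF-family ligands, and Brd3 a bromodomain protein. Neurog3 itself was followed by Zfp580 (r = 0.994), Cntnap1 (r = 0.994), 1700028E10Rik (r = 0.990), Gtf3c5 (r = 0.989), Fip1l1 (r = 0.989) and, among the factors, by Pax4 (r = 0.994), Insm1 (r = 0.974) and Rfx6 (r = 0.955). Over the 5 lines at day 7, the genes closest to Neurog3 were Fdxr (r = 0.999), Cdk6 (r = 0.999), Ivd (r = 0.997), Eif3g (r = 0.997) and Gm15501 (r = 0.996), and those closest to the mean profile of the factors were Meaf6 (r = 0.9996), Faim (r = 0.999), A130051J06Rik (r = 0.998), Rps18 (r = 0.997) and Paqr4 (r = 0.997). Among the factors, r with Neurog3 was 0.973 for Insm1, 0.954 for Nkx2-2, 0.889 for Pax4, 0.882 for Rfx6, 0.852 for Neurod1, 0.599 for Isl1 and -0.28 for Pax6.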
